A study of Mus musculus with 20 samples.

Results

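The 9 genes described here encode proteins that glands release: the secretoglobins Scgb1b27 and Scgb2b27, the prolactin-induced protein gene Pip, the major urinary protein gene Mup4, the WAP domain genes Wfdc2, Wfdc18 and Slpi, the lipocalin gene Lcn2 and the lactoferrin gene Ltf. They were selected on their measured levels in these same libraries, out of 45318 genes counted, so those levels and the fold changes between groups are given as a description. All 9 were found in the count tables, and all 9 passed the filter on low counts. That filter was passed by Scgb1b27, Scgb2b27, Pip and Mup4 only through the groups where they were high. In the 3 normal organoid libraries together, Scgb1b27 and Mup4 had 0 counts, Pip had 4 and Scgb2b27 had 23.

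Polyadenylated RNA was sequenced from 20 mouse mammary libraries, all of the FVB strain. Wild type mammary organoids (WT organoids, n = 3) are fragments of normal gland that were grown for 6 days in matrigel, a basement membrane gel, with FGF2. MMTV-PyMT mice carry the polyoma middle T oncogene under the MMTV promoter, which is active mainly in mammary epithelium. They gave tumor sections (n = 3), organoids taken directly after preparation (day 0, n = 3), organoids titled day 6 (n = 3), and organoids whose titles give no day and whose labels give 6 days of culture (undated, n = 2). MMTV-Neu-NDL mice express an activated form of the receptor Neu (ErbB2) and gave organoids after 6 days (n = 3). Tumor sections (n = 3) also came from MMTV-Cre;Flox-Neo-Neu-NT animals, where the MMTV promoter drives Cre and Cre switches on an activated Neu allele. Sections hold every cell type of the tumor, whereas organoids are prepared as epithelial fragments. No normal tissue was sequenced without culture. Where sections or day 0 organoids are set against WT organoids, tumor and culture therefore cannot be told apart. For sections the same holds for the kind of preparation. The labels do not state that replicates came from separate animals, so p-values cover only the spread among the samples sequenced, which may be technical.

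Secretoglobins of the Scgb1b and Scgb2b families are the subunits of androgen-binding proteins, small carriers that dimerize and are found in mouse saliva and tears. Major urinary proteins and Lcn2 are lipocalins, which hold small molecules in a barrel-shaped pocket. WAP domain proteins are compact and rich in cysteines, and several of them inhibit proteases. Ltf and Lcn2 withhold iron from bacteria, Ltf by binding iron itself and Lcn2 by binding bacterial siderophores. The mammary gland makes several of these proteins around lactation and involution.

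Gene counts per library ranged from 17478357 to 48341438, and no 2 libraries held identical counts. Luminal epithelial markers were present in all libraries, at a summed 4416 to 10488 CPM (counts scaled to a common library size by TMM) over 10 genes. The library labelled PyMT organoids day 6 replicate 3 went against its label. Over genes, leaving out the 9 described here, its log2 CPM correlated at r = 0.991 with PyMT section replicate 3 and at only 0.870 and 0.907 with the other day 6 libraries. Its macrophage markers summed to 460 CPM and its basal markers to 76.5 CPM, against 27.1 to 37.1 CPM and 1221 to 7440 CPM in the other 4 PyMT libraries with 6 days of culture. The chi-square per degree of freedom between this library and section 3 was 37.7, below the 45.2 to 564 of all pairs of replicates, but far above sampling noise. Levels and fold changes of the 9 genes that rest on it are given with and without it. Neu-NT section replicate 3 also stood apart, with r of 0.904 and 0.909 to its own replicates, which correlated at 0.980 with each other.

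Of the 4 genes near 0 counts in WT organoids, the secretoglobins and Pip reached the highest levels per kilobase of exon, and their starts are shown. Mup4, the other of these 4, is described by its motifs alone. Scgb1b27 lies on chromosome 7 at 34021483 to 34022881 (mm10, plus strand) and Scgb2b27 at 34011921 to 34013942 (minus strand), with their starts facing each other across 7540 bases. Pip lies on chromosome 6 at 41847535 to 41852065 (plus strand). Each sequence is the 250 bases before the RefSeq transcript start (GRCm38.p6, the build mm10), written 5′ to 3′ on the strand of the gene. These lie at chr7:34021231-34021480 for Scgb1b27, chr7:34013943-34014192 for Scgb2b27 and chr6:41847299-41847548 for Pip. Capitals mark matches to TTCNNNGAA, the form of a STAT site, and to TATAAA, the form of a TATA box, on either strand.
Scgb1b27: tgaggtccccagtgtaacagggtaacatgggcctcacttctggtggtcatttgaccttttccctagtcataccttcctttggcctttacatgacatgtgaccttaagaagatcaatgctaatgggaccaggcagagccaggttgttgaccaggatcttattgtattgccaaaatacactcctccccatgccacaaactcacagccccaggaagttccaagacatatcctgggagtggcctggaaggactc
Scgb2b27: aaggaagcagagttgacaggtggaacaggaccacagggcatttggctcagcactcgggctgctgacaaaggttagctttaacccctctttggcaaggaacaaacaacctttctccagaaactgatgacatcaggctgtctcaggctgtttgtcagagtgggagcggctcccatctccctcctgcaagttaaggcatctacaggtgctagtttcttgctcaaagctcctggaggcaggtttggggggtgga
Pip: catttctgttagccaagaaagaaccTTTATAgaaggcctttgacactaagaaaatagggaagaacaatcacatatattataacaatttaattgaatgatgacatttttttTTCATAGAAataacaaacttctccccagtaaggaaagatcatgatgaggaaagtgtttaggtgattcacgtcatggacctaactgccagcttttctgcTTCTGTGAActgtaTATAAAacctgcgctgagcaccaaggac

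The Pip sequence held 2 matches to TTCNNNGAA, at 140 to 132 and 42 to 34 bases before the start. It also held TATAAA at 28 to 23 bases before the start and, on the opposite strand, at 225 to 220 bases before it. Of 32851 RefSeq promoters of the same 300 bases (250 before to 50 after the start), 8.30% held TTCNNNGAA and 13.6% held TATAAA. The secretoglobin pair had no match in the stretch printed, and TATAAA only after the start, at 43 to 48 bases in Scgb1b27 and, on the opposite strand, at 27 to 32 bases in Scgb2b27. Mup4 and Wfdc18 held TATAAA at 27 to 22 and 31 to 26 bases before their starts. No match to any of these, nor to the 10 base NF-kB consensus that 8.46% of promoters held, was found in Wfdc2, Slpi, Lcn2 or Ltf. A match describes letters only.

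The secretoglobin pair was abundant in uncultured PyMT tumor material and nearly absent from normal organoids, all of which had been cultured. Scgb1b27 had 0 counts in each of the 3 WT libraries. It stood at 1318, 26.6 and 10372 CPM in PyMT sections 1 to 3 and at 290, 102 and 3863 CPM in day 0 PyMT organoids 1 to 3. The Neu-NT sections held 7.90, 17.4 and 10.1 CPM. The 4 PyMT libraries with 6 days of culture, leaving out the library labelled day 6 replicate 3, lay between 0 and 0.651 CPM, and the 3 Neu-NDL organoid libraries between 0 and 0.365 CPM. The library labelled day 6 replicate 3 held 16646 CPM, above all 19 others. No uncultured PyMT library overlapped a Neu-NT section, and no Neu-NT section overlapped a cultured library other than that one. Against a floor of 3 counts over the WT group, the mean was at least 55850-fold higher in day 0 organoids and at least 464-fold higher in Neu-NT sections. Such floors cover counting error only. Neu-NDL organoids 1 to 3 held 0, 13 and 6 counts, too few to rank against WT organoids. In these bulk samples, more cells of a type and more RNA per cell cannot be told apart.

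Scgb2b27, which encodes a beta or gamma type subunit, followed the same order at a higher floor. WT organoids held 0.181, 0.213 and 0.184 CPM, which are 23 counts in all. PyMT sections held 1600, 223 and 12459 CPM, and day 0 organoids 730, 674 and 4091 CPM. Uncultured PyMT material therefore again lay above every other library apart from the one labelled day 6 replicate 3, which stood at 17676 CPM. The Neu-NT sections held 16.3, 28.0 and 11.6 CPM and the Neu-NDL organoids 0.727, 7.23 and 16.0 CPM. The Neu-NDL and Neu-NT groups overlapped for this gene and not for Scgb1b27. The remaining 4 PyMT libraries with 6 days of culture lay between 0 and 3.53 CPM.

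**Figure D1:**
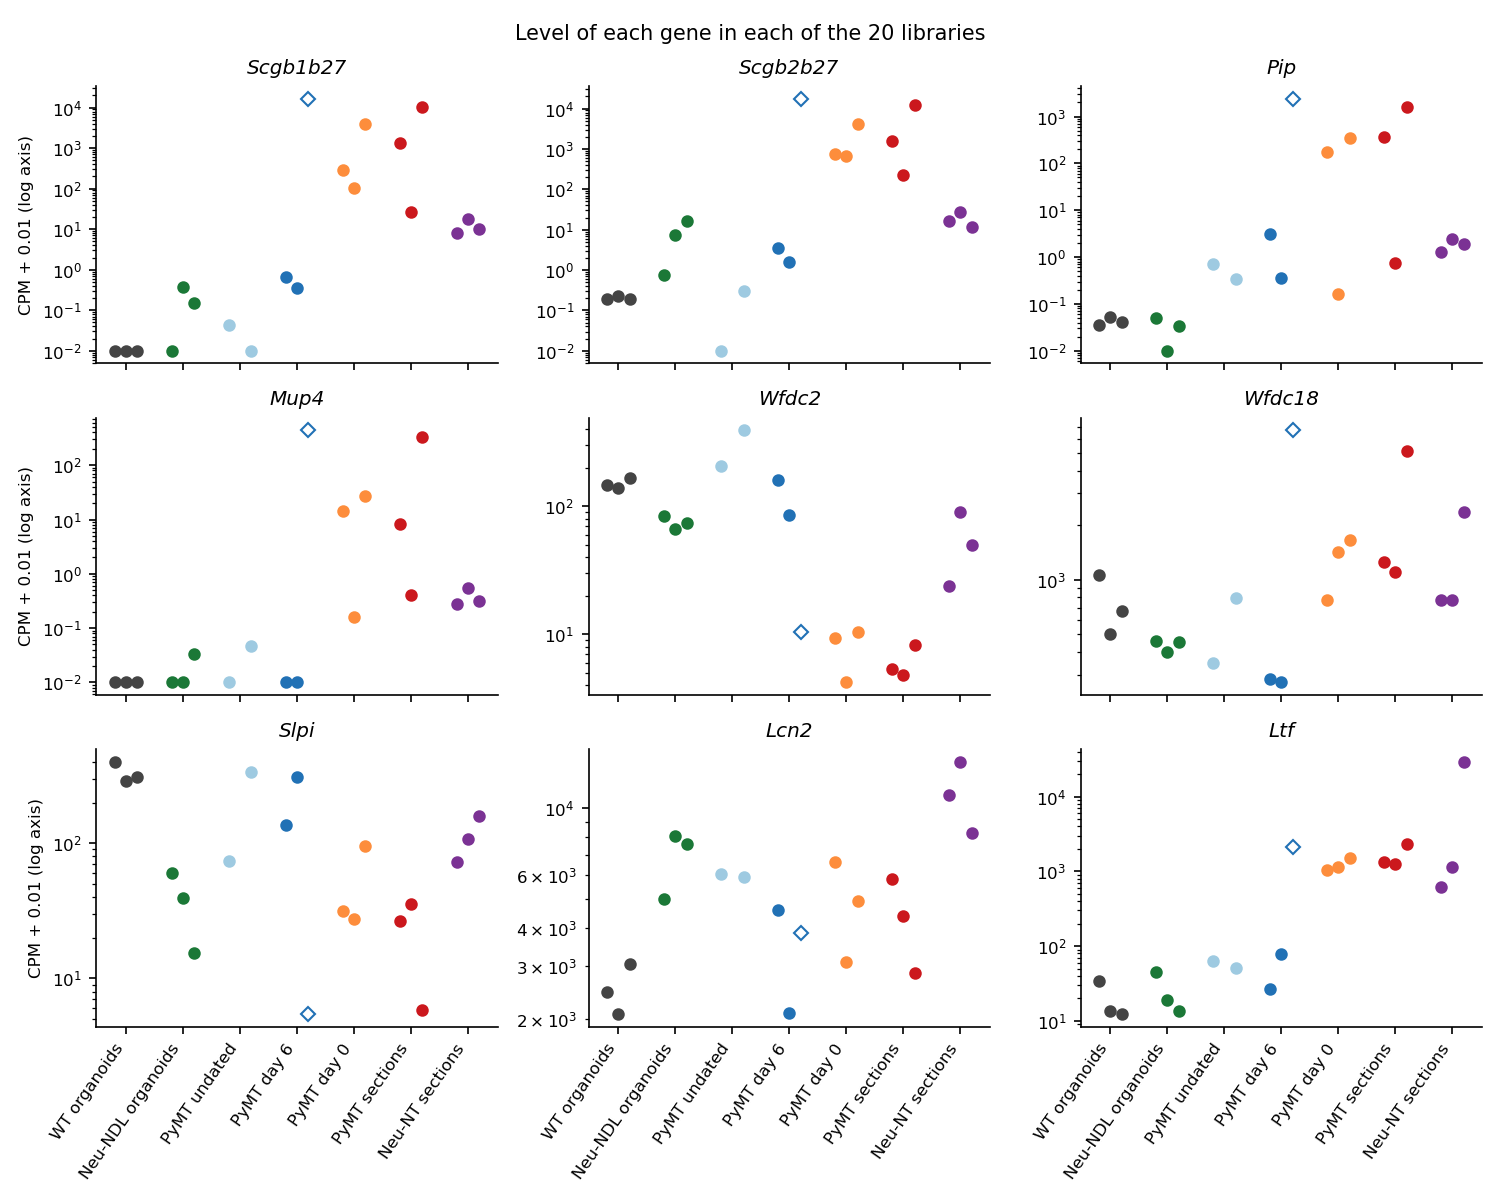
Level of each of the 9 genes (CPM + 0.01, log axis) in each of the 20 libraries, by group; each point is a library in replicate order, and the open diamond is the library labelled PyMT day 6 replicate 3. Scgb1b27, Scgb2b27, Pip, Mup4 and Ltf are high in that diamond and in most PyMT day 0 and section libraries, and Wfdc2 and Slpi are lower there than in WT organoids.

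The 2 secretoglobins did not keep a fixed ratio. Per kilobase of exon, Scgb1b27 was 1.29 and 1.30 times Scgb2b27 in PyMT sections 1 and 3, but 0.187 times in section 2. In day 0 organoids the ratio was 0.622, 0.237 and 1.48 in replicates 1 to 3. In both groups the ratio was lowest in replicate 2, which had the least secretoglobin RNA. Neu-NT sections went the other way, with ratios of 0.758, 0.970 and 1.36 and the least secretoglobin RNA in replicate 3. In Neu-NDL organoids 2 and 3 the ratio was 0.0791 and 0.0141, from 13 and 6 counts of Scgb1b27 against 257 and 666 counts of Scgb2b27. Together the pair took 2.29% of all gene counts in PyMT section 3, 0.0284% in section 2 and 3.22% in the library labelled day 6 replicate 3. Over the 20 libraries their log2 CPM correlated at r = 0.97 (0.96 without that library), a description over libraries that share groups.

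**Figure D2:**
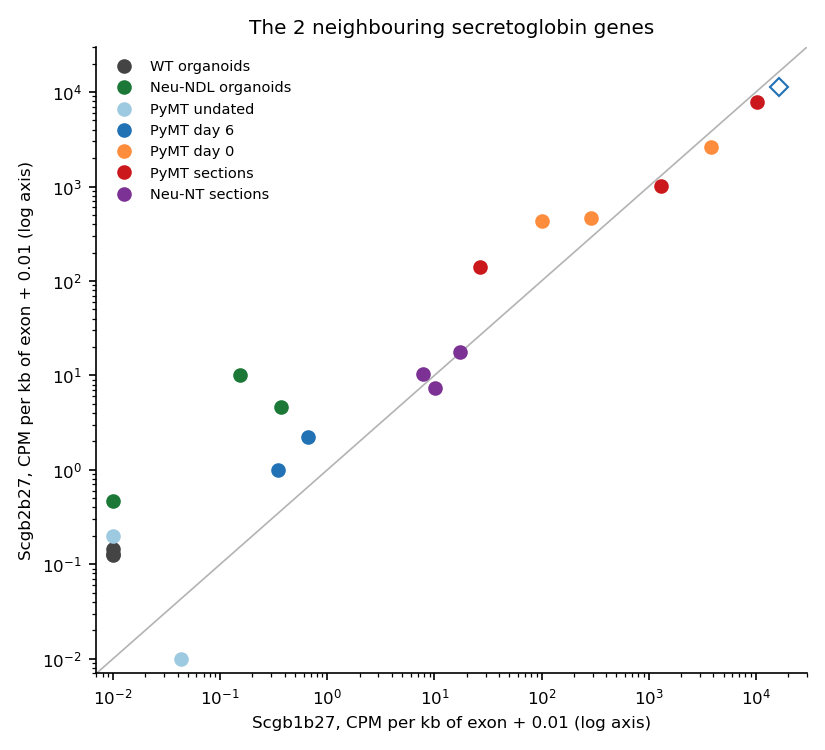
Scgb1b27 (x axis) against Scgb2b27 (y axis), both in CPM per kilobase of exon + 0.01 on log axes, with 1 point per library coloured by group; the grey line marks equal levels and the open diamond is the library labelled PyMT day 6 replicate 3. PyMT section 2, with a ratio of 0.187, and the Neu-NDL libraries lie above the line, whereas PyMT sections 1 and 3 lie slightly below it.

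Pip, whose secreted product is known from saliva and other gland fluids, differed widely between replicates of PyMT sections and of day 0 organoids. It stood at 375, 0.754 and 1570 CPM in PyMT sections 1 to 3 and at 179, 0.152 and 355 CPM in day 0 organoids 1 to 3. Replicate 2 of each group was thus far below its neighbours and also below the Neu-NT sections, which held 1.25, 2.43 and 1.86 CPM. WT organoids held 0.0258, 0.0427 and 0.0307 CPM, from 4 counts in all, and Neu-NDL organoids 3 counts. The library labelled day 6 replicate 3 held 2413 CPM, and the other 4 PyMT libraries with 6 days of culture held 0.332 to 3.15 CPM. These 4 lay above every WT library, without overlap.

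Mup4 (chromosome 4 at 59956804 to 59960710, minus strand), whose product carries pheromones, had the same order of replicates at lower levels. It stood at 8.14, 0.402 and 333 CPM in PyMT sections and at 14.6, 0.152 and 26.8 CPM in day 0 organoids. Neu-NT sections held 0.265, 0.541 and 0.311 CPM, and the library labelled day 6 replicate 3 held 439 CPM. WT organoids had 0 counts, and the other 4 PyMT libraries with 6 days of culture had 1 count among them. Against the floor of 3 counts over the WT group, the mean was at least 4486-fold higher in PyMT sections and at least 14.6-fold higher in Neu-NT sections. Of the 50 base windows of the longest Mup4 transcript, 12.4% occur in other genes, mostly in Mup5. Reads from these windows may have been left out of the counts as not unique. For Scgb2b27 that share was 1.99%, and for the other 7 genes it was 0%.

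For Scgb1b27, Scgb2b27, Pip and Mup4, replicate 3 was highest and replicate 2 lowest in sections and in day 0 organoids. The labels do not state that these numbers tie a section to an organoid preparation. Over all genes, the deviations of same-numbered section and day 0 libraries from their group means correlated at r = -0.0885, 0.173 and 0.143, so not every pair of numbers deviated together. PyMT section 2, the lowest for Scgb1b27, Scgb2b27, Pip and Mup4, also held skeletal muscle transcripts, with 6 markers at a summed 620 CPM against 1.60 and 1.66 CPM in the other sections. WT organoids held 44.7 to 200 CPM of them. The muscle creatine kinase gene Ckm stood at 69.7 CPM in section 2 and at 0.708 CPM in day 0 organoid replicate 2. The part of muscle tissue in these levels was not tested.

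Other members of these families were mostly silent. Of the 33 other Scgb1b and Scgb2b genes, 8 had a count in any library, 3 passed the filter on low counts, and only Scgb2b26 and Scgb2b24 reached 10 CPM. Scgb2b26 stood at 24.2, 0.452 and 156 CPM in PyMT sections, at 9.04, 7.88 and 87.0 CPM in day 0 organoids and at 219 CPM in the library labelled day 6 replicate 3. It had 0 counts in all WT and Neu-NDL libraries and at most 0.189 CPM in Neu-NT sections. Scgb1c1 was the 1 tested gene of the 4 other secretoglobins and reached 8.54 CPM. With all 20 libraries, edgeR called none of these in any comparison. Without the library labelled day 6 replicate 3, Scgb2b26, Scgb2b24 and Scgb1c1 were called lower in 6 day than in day 0 PyMT organoids. Their log2 fold changes were -11.71 (SE 2.33, edgeR adjusted p = 0.00583), -9.55 (SE 2.94, adjusted p = 0.0367) and -6.34 (SE 1.28, adjusted p = 0.00311). In that setting 13.9% of all genes were called lower. Many paralogs share most of their 50 base windows with each other, so a silent paralog may have lost reads that fit several places: between 14.4 and 22.1% as many alignments as gene counts were listed as not unique.

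Of the 20 other Mup genes 15 had a count, and only Mup5 and Mup6 reached 10 CPM and were tested. Mup5 stood at 29.6, 0 and 1627 CPM in PyMT sections and at 1940 CPM in the library labelled day 6 replicate 3. It had 0 counts in WT and Neu-NDL organoids. Mup6 rose in PyMT sections over WT organoids (log2 fold change 6.19, SE 1.96, edgeR adjusted p = 0.0493). With all 20 libraries this was the only call among these genes in any comparison. That call was lost without any 1 WT library, without section 1 and without section 3. The median log2 fold change of the 2 tested genes was 11.60 in PyMT sections over WT organoids, beside 0.03 for all genes tested. Without the library labelled day 6 replicate 3, Mup6 was lower in 6 day than in day 0 PyMT organoids. Its log2 fold change was then -6.96 (SE 1.37, edgeR adjusted p = 0.00238). Markers of liver, where Mup genes are strongly expressed, summed to at most 0.303 CPM over 6 genes in every library. The part of liver tissue in the levels of the Mup genes was not tested.

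Markers of salivary and lacrimal glands were also high in PyMT sections. Over the 12 genes found, their summed level was 601, 42.6 and 501 CPM in PyMT sections 1 to 3, 294, 15.2 and 68.1 CPM in day 0 organoids 1 to 3, 586 CPM in the library labelled day 6 replicate 3, 1.23 to 8.57 CPM in the other 4 PyMT libraries with 6 days of culture, 10.6 to 24.0 CPM in WT organoids 10.6 to 47.1 CPM in Neu-NT sections and 6.56 to 39.7 CPM in Neu-NDL organoids. Replicate 2 was lowest in sections and day 0 organoids, as for the secretoglobins, but replicate 1 was highest in both, where Scgb1b27 was highest in replicate 3. In Neu-NDL organoids the highest sum lay above WT organoids, where Pip had 3 counts in all. Of the 9 tested, 3 rose and none fell in PyMT sections over WT organoids, with a median log2 fold change of 7.05 beside 0.03 for all genes. These were Dcpp1 (log2 fold change 7.05, SE 2.04, adjusted p = 0.0362), Dcpp2 (8.03, SE 2.29, adjusted p = 0.0342) and Dcpp3 (8.05, SE 2.14, adjusted p = 0.0280), which encode demilune cell and parotid proteins. All 3 calls were lost without any 1 WT library, without section 1 and without section 3. In Neu-NT sections Smr2 fell and none rose, a call lost without Neu-NT section 1. Dcpp2 stood at 356, 6.73 and 198 CPM in sections 1 to 3, and Prol1 at 8.17, 16.3 and 196 CPM. The salivary mucin gene Muc19 reached 0.155 CPM and the kallikrein gene Klk1 1.79 CPM at most. The part of gland tissue outside the mammary epithelium in the levels of Scgb1b27, Scgb2b27, Pip and Mup4 was not tested.

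**Figure D3:**
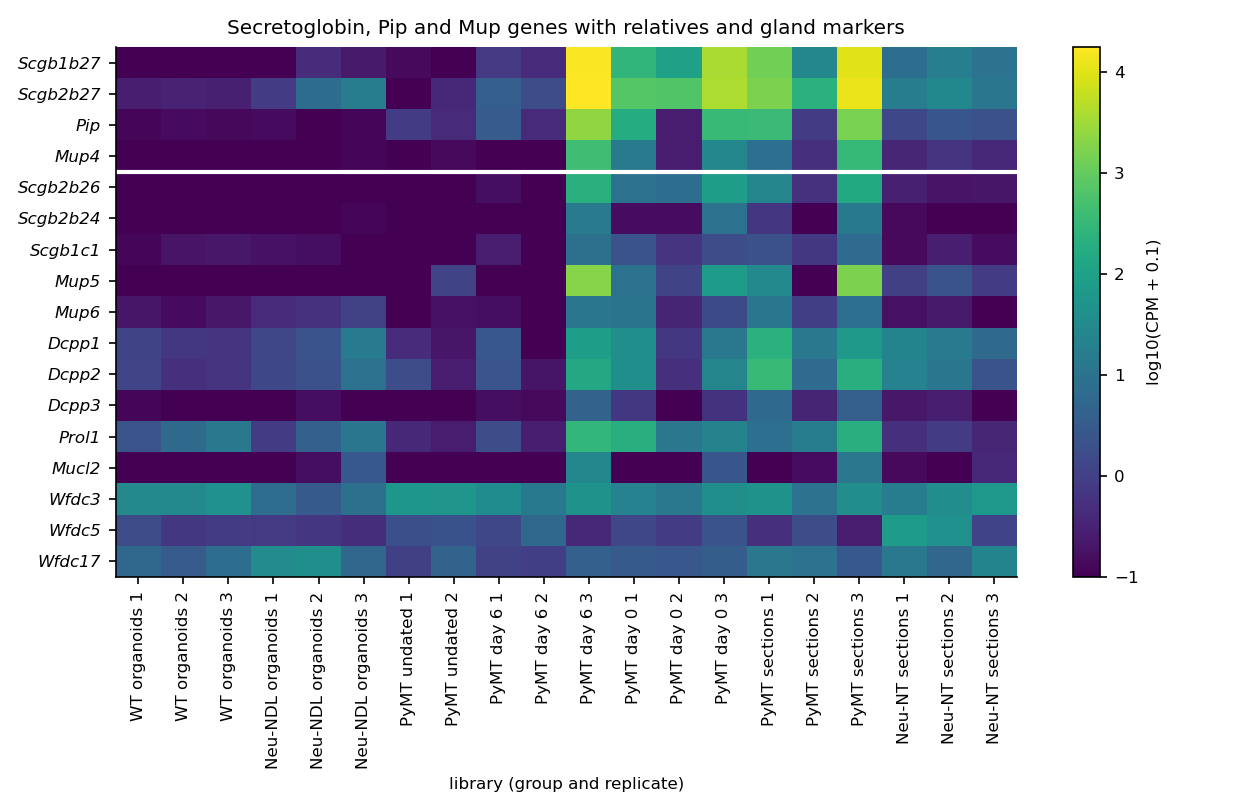
Heat map of log10(CPM + 0.1) for Scgb1b27, Scgb2b27, Pip and Mup4 (above the white line) and for relatives and gland markers (below it) in the 20 libraries. Scgb2b26, Mup5, Dcpp1, Dcpp2 and Prol1 are bright in the library labelled PyMT day 6 3 and in PyMT sections 1 or 3, where the upper 4 genes are bright, while Wfdc3, Wfdc5 and Wfdc17 follow other patterns.

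In PyMT sections against WT organoids, edgeR called 5 of the 9 genes higher (Scgb1b27, Scgb2b27, Pip, Mup4 and Ltf), where 6.45% of all genes were called higher. It called 2 lower (Wfdc2 and Slpi), where 6.05% of all genes were called lower. Since these levels chose the genes, nothing is read from the counts. The log2 fold changes were 14.55 (SE 3.37) for Scgb2b27 and 14.06 (SE 3.73) for Pip. Without any 1 WT library, Wfdc2 was the only gene called. Without section 1 or without section 3, Scgb2b27 and Wfdc2 were, and without section 2 all 7 were.

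Culture divided the PyMT libraries for most of these genes. With all 5 libraries at 6 days, edgeR called 1 of the 9 genes higher than day 0 (Wfdc2), where 4.1% of all genes were. It called none lower, where 4.12% were. An unadjusted p under 0.05 was given by edgeR to 4 of the 9 and to 5013 of all 18698 genes tested. DESeq2 called 3 of the 9, beside 2932 of 19588 genes. Without the library labelled day 6 replicate 3, edgeR called 2 higher (Wfdc2 and Slpi), where 10.3% of all genes were. It then called 6 lower (Scgb1b27, Scgb2b27, Pip, Mup4, Wfdc18 and Ltf), where 13.9% were. Scgb2b27 then had a log2 fold change of -11.56 (SE 1.58), in place of -5.96 (SE 2.13) with that library. Pip went from -3.11 (SE 1.96) to -7.57 (SE 1.83). The day 0 mean of Scgb2b27 was 1832 ± 1957 CPM (SD, n = 3), and the mean of the other 4 libraries at 6 days was 1.34 ± 1.60 CPM. Against WT organoids, the 6 day PyMT organoids had no gene of the 9 called by edgeR, where 1.4% of all genes were called higher and 2.49% lower. An unadjusted p under 0.05 was given by edgeR to 4 of the 9 and to 3851 of 18698 genes. DESeq2 called 5 of the 9, beside 1784 of 20193 genes. Without the library labelled day 6 replicate 3 the edgeR count was again 0. In that setting 1 of the 9 had an unadjusted p under 0.05, beside 5131 of 18684 genes.

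**Figure D4:**
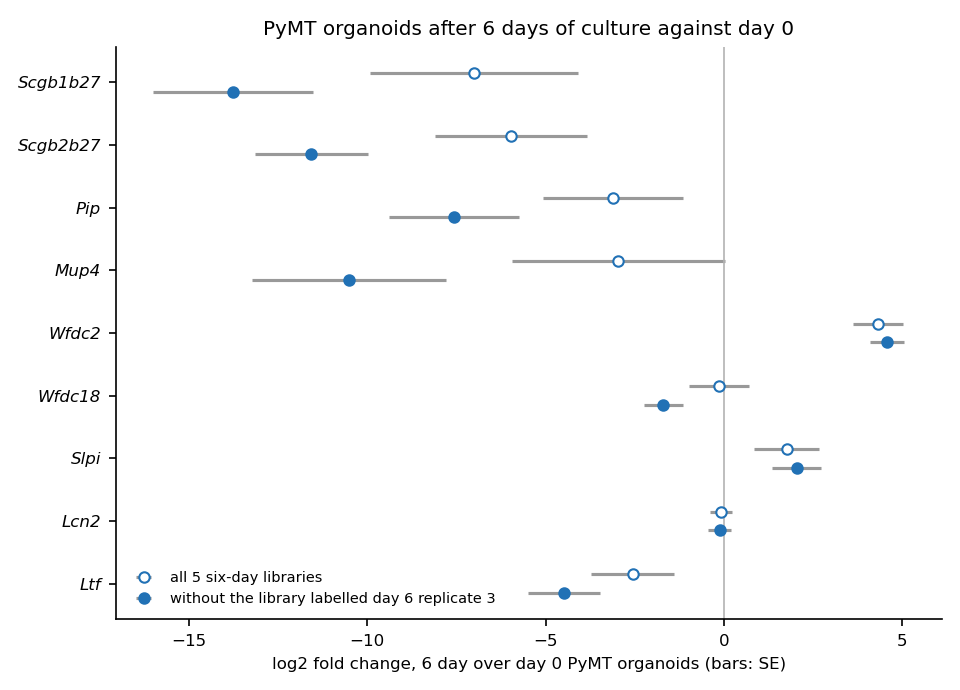
Log2 fold change of each gene in PyMT organoids after 6 days of culture over day 0 (x axis; bars are SE), with all 5 libraries at 6 days (open) and without the library labelled day 6 replicate 3 (filled). Without it Scgb2b27 moves from -5.96 to -11.56 and Pip from -3.11 to -7.57, while Wfdc2, Slpi and Lcn2 move little. The filled value of Mup4 rests on 1 count and that of Scgb1b27 on 23 counts at 6 days.

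Wfdc2 and Slpi ran opposite to the secretoglobins. Wfdc2 (chromosome 2 at 164562413 to 164568510, plus strand) encodes the secreted protein known as HE4. It stood at 146, 139 and 166 CPM in WT organoids, at 5.31, 4.77 and 8.20 CPM in PyMT sections and at 9.30, 4.20 and 10.4 CPM in day 0 organoids. At 6 days the day 6 libraries 1 and 2 held 160 and 85.2 CPM and the undated libraries 206 and 391 CPM, whereas the library labelled day 6 replicate 3 held 10.5 CPM. All uncultured PyMT libraries thus lay below every cultured library, without overlap. That one was close to day 0 replicate 3, at 10.48 against 10.44 CPM. The log2 fold change over day 0 was 4.32 (SE 0.71), and 4.58 (SE 0.48) without that library. Neu-NDL organoids held 84.1, 66.1 and 73.6 CPM, below all WT libraries, and Neu-NT sections 23.8, 89.2 and 50.1 CPM. Over the 20 libraries, log2 CPM of Wfdc2 and Scgb2b27 correlated at r = -0.89 (-0.90 without the library labelled day 6 replicate 3).

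Slpi (chromosome 2 at 164354070 to 164389095, minus strand) lies 173317 bases from Wfdc2 and encodes an inhibitor of neutrophil elastase. It stood at 400, 289 and 311 CPM in WT organoids and at 26.6, 35.7 and 5.78 CPM in PyMT sections. Day 0 organoids held 31.5, 27.7 and 95.9 CPM, and Neu-NDL organoids 60.0, 39.3 and 15.4 CPM. WT organoids therefore lay above both, without overlap. The libraries at 6 days ranged widely, at 137 and 308 CPM in day 6 replicates 1 and 2, at 74.2 and 337 CPM in the undated pair and at 5.43 CPM in the library labelled day 6 replicate 3. Neu-NT sections held 72.7, 108 and 159 CPM. The Slpi gene overlaps the miRNA gene Mir7678 on the same strand. No other of the 9 genes overlaps another annotated gene.

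Basal and epidermal markers were low beside Wfdc2 and Slpi in PyMT sections and did not follow them in every comparison. The 8 basal and myoepithelial markers summed to 2473 to 3222 CPM in WT organoids, to 59.1 to 271 CPM in PyMT sections, to 160 to 410 CPM in day 0 organoids and to 1221 to 7440 CPM in the 4 PyMT libraries with 6 days of culture other than the one labelled day 6 replicate 3. In Neu-NDL organoids they summed to 99.5 to 572 CPM and in Neu-NT sections to 73.2 to 2700 CPM. The epidermal markers summed to 261 to 331 CPM in WT organoids, 7.92 to 9.75 CPM in PyMT sections, 7.17 to 23.0 CPM in day 0 organoids, 12.5 to 195 CPM in Neu-NDL organoids, 12.8 to 127 CPM in Neu-NT sections, 10.6 CPM in the library labelled day 6 replicate 3 and 81.3 to 1535 CPM in the other 4 at 6 days. Of these 8, 3 fell and none rose in PyMT sections over WT organoids, with a median log2 fold change of -3.73 beside 0.03 for all genes (Acta2, Cnn1 and Myh11). In 6 day PyMT over WT organoids 4 fell, with or without the library labelled day 6 replicate 3, where Wfdc2 was at 0.09 (SE 0.57) and Slpi at -0.92 (SE 0.83). In 6 day over day 0 PyMT organoids, where Wfdc2 was called higher, no basal marker was called higher and Myh11 was called lower, again with or without that library. The median over the 8 was nevertheless 0.92 with that library and 1.15 without it, beside -0.02 and -0.06 for all genes. Of 6 tested epidermal markers, 0 were called in this comparison with that library. Without it Krt6a was called higher (6.19, SE 1.63, edgeR adjusted p = 0.0130). In Neu-NT sections 5 fell, and neither Wfdc2 nor Slpi was called, also without Neu-NT section 3 alone. Without both that section and the library labelled PyMT day 6 replicate 3, Wfdc2 was called lower there (-1.40, SE 0.50) and Slpi was not called. The part of basal or epidermal cells in the levels of Wfdc2 and Slpi was not tested.

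Wfdc18 (chromosome 11 at 83709015 to 83711348, plus strand), which encodes an extracellular proteinase inhibitor known from the involuting gland, was abundant in every library. It stood at 1067, 500 and 670 CPM in WT organoids, at 1261, 1106 and 5169 CPM in PyMT sections and at 775, 1420 and 1655 CPM in day 0 organoids. The library labelled day 6 replicate 3 held 6692 CPM, the highest of all 20, and the other 4 PyMT libraries with 6 days of culture held 271 to 789 CPM. Neu-NDL organoids lay close together at 460, 401 and 456 CPM, and Neu-NT sections at 775, 775 and 2369 CPM. The PyMT day 0, Neu-NT and WT libraries overlapped. The log2 fold change over day 0 was -0.13 (SE 0.85) with all 5 libraries at 6 days and -1.69 (SE 0.53) without the library labelled day 6 replicate 3.

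Of the 19 other WAP domain genes, 14 had a count, 7 were tested and Wap, Wfdc3, Wfdc5 and Wfdc17 reached 10 CPM. Wfdc5 rose in Neu-NT sections over WT organoids (log2 fold change 5.49, SE 1.28, edgeR adjusted p = 0.00892) and was lower in PyMT than in Neu-NT sections (-5.87, SE 1.32, adjusted p = 0.0134). The second call was lost without PyMT section 1 or 3. Its levels in Neu-NT sections 1 to 3 were 79.4, 45.0 and 1.04 CPM, so replicate 3 lay within the range of WT organoids, at 0.598 to 1.47 CPM. Wfdc3 fell in Neu-NDL over WT organoids (-2.45, SE 0.65, adjusted p = 0.0412), a call lost without any 1 library of either group. Wap rose in Neu-NT sections (7.22, SE 2.13, adjusted p = 0.0276), but without section 3 its difference was -1.58. Wfdc17 was at 34.5, 40.5 and 5.27 CPM in Neu-NDL organoids and at 3.16 to 7.62 CPM in WT organoids, and did not pass the test. The median log2 fold changes of the 7 tested genes were 1.33 in Neu-NT sections and -1.67 in Neu-NDL organoids, beside 0.03 and 0.02 for all genes.

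Lcn2 (chromosome 2 at 32384633 to 32388252, minus strand) had its highest group means in Neu-NT sections and Neu-NDL organoids. It stood at 2471, 2080 and 3047 CPM in WT organoids, at 4997, 8060 and 7593 CPM in Neu-NDL organoids and at 11062, 14203 and 8291 CPM in Neu-NT sections. These 3 groups did not overlap each other. PyMT sections held 5825, 4408 and 2851 CPM, day 0 organoids 6632, 3083 and 4918 CPM, day 6 replicates 1 and 2 held 4599 and 2097 CPM, the library labelled day 6 replicate 3 held 3864 CPM, and the undated pair 6047 and 5917 CPM. These PyMT groups overlapped each other, apart from the undated pair, which lay above all PyMT sections and day 6 libraries. Neu-NDL replicate 1 lay below PyMT section 1, day 0 replicate 1 and both undated libraries, so Neu-NDL organoids overlapped these groups. Lcn2 was the gene whose culture difference moved least with the library labelled day 6 replicate 3, from -0.09 (SE 0.31) to -0.12 (SE 0.33).

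In Neu-NDL over WT organoids Lcn2 was the 1 gene of the 9 called higher, where 2.47% of all genes were. None was called lower, where 2.06% were. An unadjusted p under 0.05 was given by edgeR to 3 of the 9 and to 3893 of 18698 genes. DESeq2 called 5 of the 9, beside 2070 of 18983 genes. The log2 fold change of Lcn2 was 1.44 (SE 0.35). The call was lost without any 1 WT library and without Neu-NDL replicate 2 or 3. In Neu-NT sections over WT organoids Lcn2 and Ltf were called higher, where 10.5% of all genes were, and none lower, where 8.47% were. An unadjusted p under 0.05 was given by edgeR to 5 of the 9 and to 6266 of 18698 genes. DESeq2 called 6 of the 9, beside 4579 of 21404 genes. The log2 fold change of Lcn2 there was 2.14 (SE 0.36). In PyMT against Neu-NT sections Wfdc2 and Lcn2 were called lower, where 5.13% of all genes were, and none higher, where 4.57% were. An unadjusted p under 0.05 was given by edgeR to 7 of the 9 and to 4886 of 18698 genes. DESeq2 called 6 of the 9, beside 3005 of 18983 genes. The Lcn2 difference was -1.36 (SE 0.35) and that of Wfdc2 -3.16 (SE 0.70). The call of Lcn2 was lost without Neu-NT section 1 or 2 and without PyMT section 2 or 3, and that of Wfdc2 without PyMT section 1.

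Among the 20 other lipocalin genes, 17 had a count and 8 were tested. Ptgds, which encodes a prostaglandin D synthase, rose in Neu-NT sections over WT organoids (log2 fold change 6.47, SE 1.56, edgeR adjusted p = 0.0106) and stood at 99.3, 71.2 and 0.207 CPM in replicates 1 to 3. As with Wfdc5, the level in Neu-NT section 3 was near that of WT organoids, at 0.448 to 0.799 CPM. The call was lost without WT replicate 2. Apod reached 333 CPM in Neu-NT section 2, and stood at 33.3 and 5.69 CPM in sections 1 and 3. Orm1, an acute phase glycoprotein gene, was highest in the undated PyMT organoids, at 10.3 and 10.1 CPM, against 0.149 to 0.258 CPM in WT organoids. It did not pass the test with all 20 libraries. Without the library labelled day 6 replicate 3, it was called higher in 6 day PyMT over WT organoids (5.15, SE 1.21, edgeR adjusted p = 0.0169). Over day 0 it was then at 3.62 (SE 1.11, adjusted p = 0.0281). Of the 7 lipocalin genes tested in that setting, 1 rose and 2 fell over WT organoids.

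Ltf (chromosome 9 at 111019271 to 111042767, plus strand) divided uncultured from cultured material. It stood at 34.6, 13.7 and 12.3 CPM in WT organoids and at 44.5, 18.9 and 13.4 CPM in Neu-NDL organoids, and these 2 groups overlapped. PyMT sections held 1322, 1242 and 2330 CPM and day 0 organoids 1033, 1133 and 1503 CPM, so these too overlapped. The 4 PyMT libraries with 6 days of culture other than the one labelled day 6 replicate 3 held 26.3 to 79.1 CPM, and that library held 2153 CPM. No uncultured library overlapped a cultured one apart from it. The log2 fold change of 6 day over day 0 PyMT organoids was -2.56 (SE 1.16) with it and -4.48 (SE 1.01) without it. Unlike Pip and Mup4, Ltf varied by only 1.88-fold among PyMT sections and by 1.45-fold among day 0 organoids.

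In Neu-NT sections Ltf stood at 626, 1151 and 29243 CPM. Section 3 held 46.7 times the level of section 1, and Ltf was there the most abundant of the 9 genes per length, at 8476 CPM per kilobase. The log2 fold change over WT organoids was 9.0 (SE 1.82) with it. Without Neu-NT section 3 and the library labelled PyMT day 6 replicate 3 it was 5.47 (SE 0.63). The same section held milk transcripts: Csn2, which encodes beta-casein, stood at 24215 CPM against 18.8 and 295.8 CPM in sections 1 and 2, Wap at 1039 CPM against 0.567 and 0.991 CPM, and Glycam1 at 4046 CPM against 1.63 and 1.71 CPM. The mucin gene Muc4 stood at 439 CPM against 0.227 and 6.58 CPM. Its 12 milk genes summed to 79700.5 CPM, against 11867 and 15978 CPM in the other sections. The part of this in the level of Ltf was not tested.

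**Figure D5:**
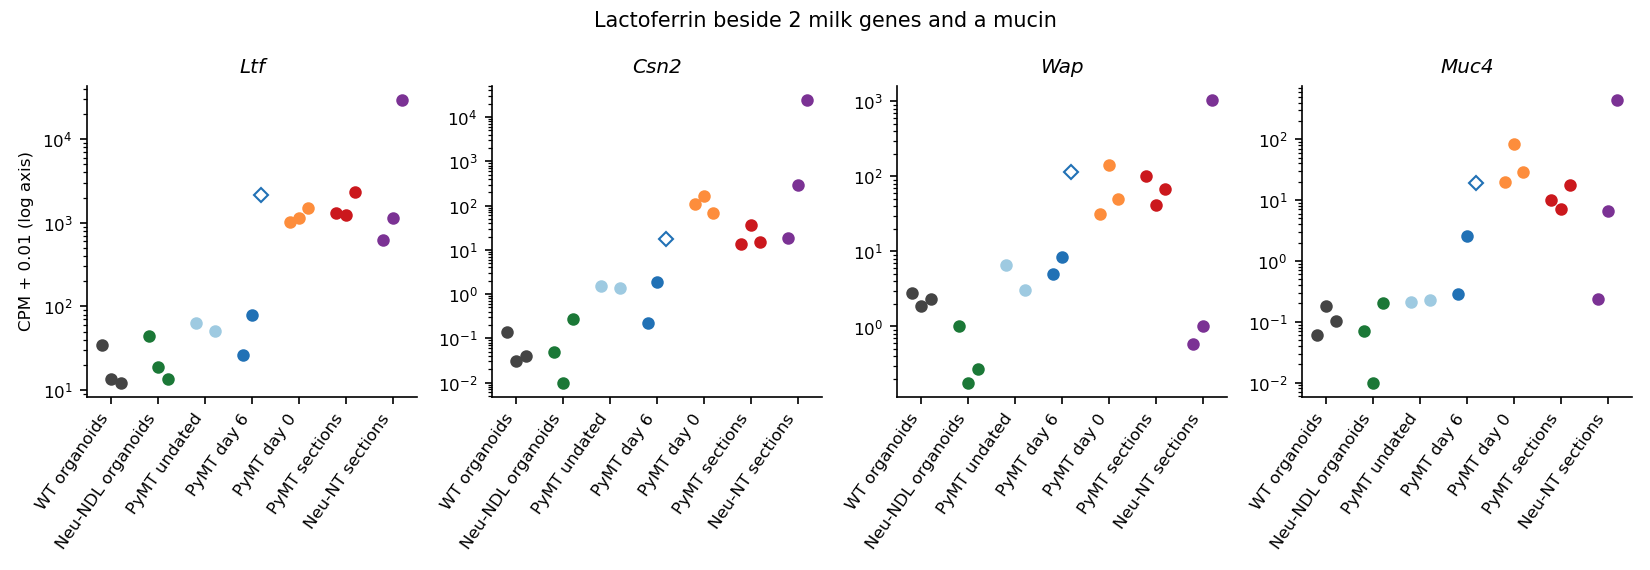
Ltf beside the milk genes Csn2 and Wap and the mucin gene Muc4 (CPM + 0.01, log axis) in each library, by group; the open diamond is the library labelled PyMT day 6 replicate 3. Neu-NT section 3 is the highest library in all 4 panels, with 29243 CPM of Ltf. In the Ltf panel the uncultured PyMT libraries lie above the cultured ones other than the diamond.

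Of the 12 milk genes, 8 rose and none fell in Neu-NT sections over WT organoids, and 2 rose in PyMT sections (Csn2 and Xdh). The Csn2 call in PyMT sections was lost without any 1 library of either group, and that of Xdh without section 1. Without Neu-NT section 3, Wap reversed as above and the calls of Cel, Csn1s2b and Xdh were lost. Csn2 remained higher in Neu-NT sections without section 3 and the library labelled PyMT day 6 replicate 3 (log2 fold change 11.29). The median log2 fold changes were 5.60 and 2.33, beside 0.03 for all genes. In 6 day over day 0 PyMT organoids only Csn2 fell (log2 fold change -5.17, SE 1.52, edgeR adjusted p = 0.0480), with a median of -2.28 over the 12 genes. Without the library labelled day 6 replicate 3, 5 of the 12 fell, with a median of -3.18, and Csn2 was at -6.47 (SE 1.57, adjusted p = 0.00848). With all 5 libraries at 6 days as the start, the Csn2 call was lost without any 1 of the libraries compared other than the one labelled day 6 replicate 3. Csn2 was also among the 5 genes whose log2 CPM was most like that of Ltf over the 20 libraries (r = 0.94), with Pepd (0.94), Sept4 (0.92), Nuak2 (0.92) and Muc4 (0.91). None of these 5 was among the nearest 5 by Spearman rho. The 3 other transferrin family genes (Trf, Meltf and Tfrc) did not share the pattern, with summed levels of 263 to 836 CPM and no call in any comparison.

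Of 25 other secreted host defense genes 23 were tested, and 8 rose and 2 fell in Neu-NT sections over WT organoids, while 5 rose and 1 fell in PyMT sections. Lbp, which encodes the lipopolysaccharide binding protein, rose in both (log2 fold change 4.65, SE 0.55, adjusted p = 0.000168, and 2.90, SE 0.50, adjusted p = 0.00567), as did the lactoperoxidase gene Lpo (4.87, SE 1.35, adjusted p = 0.0202, and 5.51, SE 1.38, adjusted p = 0.0215). The Lbp calls were kept without each library in turn, and the Lpo calls were lost without WT replicate 2 or 3 and, in PyMT sections, also without WT replicate 1 or section 3. The clusterin gene Clu rose in Neu-NT sections (3.14, SE 0.43, adjusted p = 0.000408). The mucosal scavenger receptor gene Dmbt1 fell in PyMT (-5.75, SE 1.76, adjusted p = 0.0437) and Neu-NT sections (-11.28, SE 2.44, adjusted p = 0.00593). The call in PyMT sections was lost without any 1 WT library, without section 1 and without section 3. The medians over the 23 genes were 2.47 in Neu-NT and 1.77 in PyMT sections.

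Neutrophils also carry Lcn2 and Ltf. The 13 neutrophil markers summed to 24.4, 18.8 and 132 CPM in Neu-NT sections 1 to 3, so the sum was highest in the section with the most Ltf. PyMT sections held 49.4, 32.4 and 10.6 CPM, WT organoids 16.7 to 20.7 CPM and Neu-NDL organoids 3.71 to 26.0 CPM. The 4 PyMT libraries with 6 days of culture other than the one labelled day 6 replicate 3 held 57.7 to 225 CPM, with S100a8 at 33.9 to 185 CPM. The granule protease gene Prtn3 stood at 51.8 CPM in Neu-NT section 3, against 2.31 and 4.64 CPM in its replicates and 1.70 to 5.66 CPM in WT organoids. Mmp9 reached 16.0 CPM and Mmp8 7.45 CPM in the library where each was highest. Other granule genes stayed low everywhere, with at most 1.47 CPM of Mpo, 0.567 CPM of Ngp, 0.512 CPM of Camp and 0.338 CPM of Elane, and the surface marker gene Ly6g reached 0.189 CPM. Of 11 tested markers, 4 rose in Neu-NT sections over WT organoids (Csf3r, Cxcr2, Retnlg and S100a9), with a median log2 fold change of 3.54 beside 0.03 for all genes, and 3 rose in PyMT sections. Csf3r stood at 5.71, 2.52 and 15.1 CPM in Neu-NT sections and at 0.0213 to 0.184 CPM in WT organoids, a call lost without WT replicate 2. The part of neutrophils in the levels of Lcn2 and Ltf was not tested.

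Macrophage markers were higher in Neu-NDL organoids and in sections than in WT organoids, but did not follow Lcn2 in every group. The 10 markers summed to 318 to 763 CPM in Neu-NDL organoids, 370 to 1379 CPM in Neu-NT sections and 510 to 782 CPM in PyMT sections, against 34.5 to 68.5 CPM in WT organoids. Day 0 PyMT organoids held 230 to 281 CPM. The undated PyMT libraries held only 32.4 to 37.1 CPM, where Lcn2 stood at 6047 and 5917 CPM. In PyMT sections over WT organoids Lcn2 was not called (log2 fold change 0.78, SE 0.35). Of the 10, 4 rose in Neu-NDL organoids, 8 in Neu-NT sections and 7 in PyMT sections over WT organoids, and none fell, with medians of 3.74, 4.14 and 3.64 beside 0.02 to 0.03 for all genes. Of 7 tested T and B cell markers, none rose in Neu-NDL organoids, 4 in Neu-NT sections and 3 in PyMT sections. The part of these cells in the level of Lcn2 was not tested.

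Genes other than the 9 were ranked by their likeness to Scgb1b27, Pip, Wfdc18, Lcn2 and Ltf, by Pearson r of log2 CPM over the 20 libraries among 11714 genes, as a description over libraries that share groups. Members of the set were left out of this ranking, and Scgb2b27 would stand above all others for Scgb1b27 (r = 0.97), as Mup4 would stand next after Kcne1 for Pip (0.95). The nearest to Scgb1b27 were Trim26 (r = 0.96), Scgb2b26 (0.96), Lig3 (0.94), Tmem98 (0.94) and Engase (0.93). Those nearest to Pip were Kcne1 (0.97), C2cd4a (0.94), Mup5 (0.92), Rcan1 (0.90) and Scgb2b26 (0.90). The relatives Scgb2b26 and Mup5 were thus among these genes. For Wfdc18 they were Mpdu1 (0.92), Agr2 (0.90), Polr2i (0.90), Mrps11 (0.89) and Cpxm2 (0.89). For Lcn2 they were Tlr3 (0.89), Gstt1 (0.84), Myo7a (0.84), Cradd (0.83) and Surf4 (0.83). Ranked by Spearman rho, 3 of the 5 were kept for Scgb1b27 and Lcn2, 2 for Wfdc18, 1 for Pip and 0 for Ltf. Without the library labelled day 6 replicate 3 the r of these genes was 0.91 to 0.96 for Scgb1b27, 0.87 to 0.96 for Pip, 0.85 to 0.89 for Wfdc18, 0.83 to 0.89 for Lcn2 and 0.91 to 0.95 for Ltf. Lcn2 was close to uncorrelated with the other 8, at r of -0.16 to 0.27.

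By group mean and SD (CPM), PyMT and Neu-NT sections compared as follows. Scgb1b27 was at 3906 ± 5637 in PyMT and 11.8 ± 4.97 in Neu-NT sections (n = 3 each), and Scgb2b27 at 4761 ± 6703 and 18.6 ± 8.46. Pip was at 648 ± 819 and 1.85 ± 0.593. With all 20 libraries, edgeR did not call Scgb1b27, Scgb2b27 or Pip between these sections, whereas DESeq2 called each of them higher in PyMT. The SD of each PyMT group exceeded its mean, and for Pip the lowest PyMT section lay below all 3 Neu-NT sections. Wfdc2 was at 6.09 ± 1.84 and 54.4 ± 32.9, and Lcn2 at 4362 ± 1487 and 11185 ± 2958. These last pairs did not overlap.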

How the data were processed

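The authors deposited 1 table of raw counts per library, whole numbers per Ensembl gene, for 20 libraries in 7 groups taken from the labels. CASAVA, FastQC, STAR, HTSeq, DESeq2 and the build mm10 are named per the submitters' processing notes, and annotation release, strand and counting mode are not given in the sources used here. Of 45318 gene IDs, 44671 matched GENCODE M21 for symbols, and promoters came from RefSeq GRCm38.p6. Lines for reads without a gene were left out (5.60 to 12.3% of uniquely placed reads without a feature, 4.68 to 7.39% ambiguous). Total gene counts were 17478357 to 48341438 per library.

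All 20 libraries were fitted together in edgeR 4.0.16 (R 4.3.3) with TMM sizes, the filterByExpr filter (18698 genes kept) and the robust quasi-likelihood test, with 13 residual degrees of freedom and a common dispersion of 0.193. Calls are at a Benjamini-Hochberg adjusted p under 0.05 over all genes tested. The 6 day PyMT value averages the day 6 and undated groups equally. CPM use TMM sizes, log2 CPM a prior count of 2, and SE is the size of the fold change (log2) over the root of F. The code was tested on simulated counts. The members and lists were chosen with earlier results of these data known. Beside the 9 genes, the text names related genes that were called (up to 6 per list and comparison) or that reached 10 CPM in the Scgb, Mup, Wfdc and lipocalin families, and the 5 genes most like each of 5 members. Marker genes and Prol1, Klk1, Muc19 and Scgb1c1 were named after their values were seen. Alternatives were DESeq2 1.42.0, RLE factors, no filter, the day 6 group alone, a replicate block, and libraries left out. Same-numbered day 0 and day 6 PyMT libraries deviated together (r = 0.287, 0.428 and 0.317). The fold changes, SE and calls given here nevertheless come from group means only, without pairing of numbers. Numbers entered the fit only in the replicate block, which was run for every comparison.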

Additional observations from a re-analysis of the deposited data

Results flagged for a closer look

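Among the 5 PyMT organoid libraries with 6 days of culture (2 title groups pooled), the library labelled day 6 replicate 3 lay far from the others for 6 of the 9 genes, with a gap to the next library above 0.71 of the whole range. It held 16646 CPM of Scgb1b27, 17676 CPM of Scgb2b27, 2413 CPM of Pip, 439 CPM of Mup4, 6692 CPM of Wfdc18 and 2153 CPM of Ltf. For normally distributed values, chance would mark about 1 in 20 groups. The CPM used here were not log-transformed and pool 2 title groups, so that rate may not hold for them. These 6 values come from the same library, which resembled PyMT section 3 in genes other than these.

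Wfdc2 stood above every WT library in both undated PyMT libraries and below every WT library in all 3 Neu-NDL libraries, a log2 difference of 2.0 between these groups. That difference was not tested.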

How the results depend on the processing

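Of the 9 genes, edgeR called 0 in 6 day PyMT over WT organoids, 1 in Neu-NDL over WT organoids, 7 in PyMT sections over WT organoids, 2 in Neu-NT sections over WT organoids, 1 in 6 day over day 0 PyMT organoids and 2 in PyMT over Neu-NT sections. With DESeq2, which gave Wfdc18 no adjusted p, the counts in that order were 5, 5, 7, 6, 3 and 6. Beside these, DESeq2 called 1784 of 20193, 2070 of 18983, 3691 of 20193, 4579 of 21404, 2932 of 19588 and 3005 of 18983 genes. Without the 2 libraries that stood apart they were 0, 3, 8, 5, 8 and 5. Without a filter the count in PyMT sections over WT organoids was 2, and with the day 6 group alone that in 6 day PyMT over WT organoids was 1. RLE factors and the replicate block left all 6 counts as they were. Leaving out 1 library at a time gave 0 to 0, 0 to 1, 1 to 7, 2 to 2, 1 to 8 and 1 to 2.

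Over all genes the calls were 728, 846, 2337, 3555, 1537 and 1814 in the same order. Leaving out 1 library gave 81 to 2025, 115 to 1291, 525 to 1729, 1830 to 4060, 232 to 4527 and 721 to 3095. Without the 2 libraries that stood apart they were 3071, 2699, 5024, 5384, 5701 and 4317, and with DESeq2 1784, 2070, 3691, 4579, 2932 and 3005. In 6 day over day 0 PyMT organoids there were 896 without a filter, 117 with the day 6 group alone and 1278 with the replicate block. The causes were not tested.

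Sign changes were found for 4 related genes. Leaving out 1 library gave -0.46 (without PyMT section 2) to 8.07 for Ckm, -6.85 to 1.04 for Csn1s1 and -8.69 to 0.23 for Csn1s2b in PyMT over Neu-NT sections, and -1.58 to 7.80 for Wap in Neu-NT sections over WT organoids. The sign change of the last 3 came without Neu-NT section 3. Without the 2 libraries that stood apart the values were 1.02 for Csn1s1, 0.22 for Csn1s2b and -1.58 for Wap. Groups of 2 or 3 libraries limit every value, and counts near 0 (Mup4 and Scgb1b27 in cultured organoids) are too few to rank.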

Other observations

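Other secreted host defense genes also differed between cultured organoids. In 6 day PyMT over WT organoids 3 of 23 rose and 1 fell, with a median log2 fold change of 1.94 beside 0.01 for all genes. Without the library labelled day 6 replicate 3, 7 rose and 1 fell, with a median of 1.67. Dmbt1 stood at 85.3 to 139 CPM in WT organoids and at 0 to 0.884 CPM in the 5 PyMT libraries with 6 days of culture (log2 fold change -9.52, SE 1.84, edgeR adjusted p = 0.0116), a call lost without undated replicate 1. Without the library labelled day 6 replicate 3 it was at -9.24 (SE 1.85, adjusted p = 0.00858). Lbp rose (2.01, SE 0.46, adjusted p = 0.0272), a call lost without any 1 WT library or undated replicate 1, and was at 1.67 (SE 0.40, adjusted p = 0.0174) without the library labelled day 6 replicate 3.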
